A study of Homo sapiens with 12 samples.

Results

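Pyruvate kinase genes and the RNA-binding proteins that set how PKM is spliced were followed through 2 knockdown experiments. The 8 genes were chosen by name, PKM and PKLR as the pyruvate kinase genes and PTBP1, PTBP2, HNRNPA1, HNRNPA2B1, SRSF3 and RBM4 as the splicing regulators, and all were found among the 60558 gene identifiers that both expression tables share. RNA was taken from MDA-MB-231, an established human cell line of triple-negative breast cancer (TNBC) that grows with a mesenchymal phenotype. In one experiment NONO was knocked down and in the other PKM2, by siRNA according to the submitters' design text, and each was compared with a negative control (NC) group of its own, described only as NC. All groups were of this 1 line with a WT genotype given for the NC libraries, and each of the 4 groups held 3 libraries. Poly(A)-selected RNA was sequenced, and a library held from 19861762 to 20981712 estimated counts in the NONO experiment and from 24097948 to 28455268 in the PKM2 experiment.

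Pyruvate kinase catalyses the last step of glycolysis. The PKM gene makes 2 enzymes through mutually exclusive splicing, since a mature mRNA carries either exon 9, which gives PKM1, the form of muscle and brain, or exon 10, which gives PKM2, the form of proliferating and tumour cells. PTBP1, HNRNPA1 and HNRNPA2B1 bind around exon 9 and repress its inclusion, SRSF3 binds exon 10 and favours it, and RBM4 is known to oppose PTBP1 and to favour exon 9. PKLR is a separate gene that encodes the pyruvate kinases of liver and red blood cells. NONO is a nuclear protein of paraspeckles that binds DNA and RNA.

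The 2 exons that distinguish PKM1 from PKM2 are shown because a count covers the whole gene and cannot tell them apart. In the GENCODE 29 annotation of GRCh38, PKM (ENSG00000067225) lies on the minus strand at chr15:72199029-72231822. Exon 9 lies at chr15:72203022-72203188 and is a coding exon of 6 of the 14 coding transcripts, and exon 10 lies at chr15:72202454-72202620 and is a coding exon of 3. The capitals mark the bases at which the exons differ, read 5′ to 3′ along the mRNA.
exon 9: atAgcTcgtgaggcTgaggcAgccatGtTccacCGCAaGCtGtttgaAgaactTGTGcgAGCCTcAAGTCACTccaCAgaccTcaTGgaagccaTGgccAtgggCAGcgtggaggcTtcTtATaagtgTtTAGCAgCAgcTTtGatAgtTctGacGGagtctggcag
exon 10: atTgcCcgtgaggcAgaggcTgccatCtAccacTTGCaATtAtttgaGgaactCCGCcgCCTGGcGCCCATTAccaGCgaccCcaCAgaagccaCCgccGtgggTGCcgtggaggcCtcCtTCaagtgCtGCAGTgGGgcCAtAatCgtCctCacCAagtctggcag
Both exons were 167 bases long, 105 positions held the same base in each and 62 differed, an identity of 62.9%. Exon 10 had the higher GC content, 61.1% against 53.3%. Letters typical of the binding sites of these proteins were searched on the mRNA strand only. TCTT, a core motif of PTBP1, occurred 1 time in exon 9 and not in exon 10, and it was found in 45.9% of 874 coding exons of the same length. TAGG, the core of the HNRNPA1 motif, was in neither exon (11.4% of those exons held it), nor was CTCTCT (4.6%). Introns were not searched.

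The labelled cell line was compared with its markers. All 5 mesenchymal or basal markers (VIM, CD44, SPARC, AXL and CAV1) were at 105.9 TPM or more in every library (TPM, the share of transcripts after scaling for gene length and depth). The 7 luminal, epithelial or receptor markers were at 35.22 TPM or less, with ERBB2 the highest, ESR1 at no more than 0.12 TPM and CDH1 at no more than 0.06 TPM. Markers of blood and endothelial cells were low, with PTPRC at no more than 0.15 TPM and PECAM1 at no more than 2.31 TPM. PECAM1 passed the edgeR test after NONO knockdown, with a log2 fold change of 0.86 and group means of 0.293 and 0.587 TPM. It did not pass after PKM2 knockdown (-0.55). NONO itself was lowered in the NONO experiment, with a log2 fold change of -2.57 (standard error, SE, 0.05). On counts NONO rose by 0.30 on the log2 scale after PKM2 knockdown and passed the test (adjusted P = 7.5e-05, edgeR). On TPM it was at 0.12 and did not pass (adjusted P = 0.13, limma). In replicate comparisons, NC library 1 of the NONO experiment and PKM2 knockdown library 3 lay farthest from the others of their group.

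The levels of the 8 genes were first ordered by TPM, which can be compared between genes. In the NC libraries of the NONO experiment PKM stood highest at 1590 ± 24.6 TPM (SD, n = 3, here and below), followed by HNRNPA2B1 at 982 ± 36.8, HNRNPA1 at 872 ± 20.1, PTBP1 at 285 ± 11.2, SRSF3 at 192 ± 5.31, RBM4 at 98.4 ± 1.32 and PTBP2 at 7.64 ± 1.73 TPM. In the NC libraries of the PKM2 experiment PKM was also highest at 1804 ± 34.5 TPM, and SRSF3 (354 ± 23.7) stood above PTBP1 (213 ± 5.47). The ranges of neighbours in the order did not overlap in any of the 4 groups. The tables of the experiments were normalised separately and list different lengths for some genes (1842 and 3744 bases for HNRNPA1), so their TPM levels are set side by side without a test. PKLR was at or near 0 throughout.

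**Figure D1:**
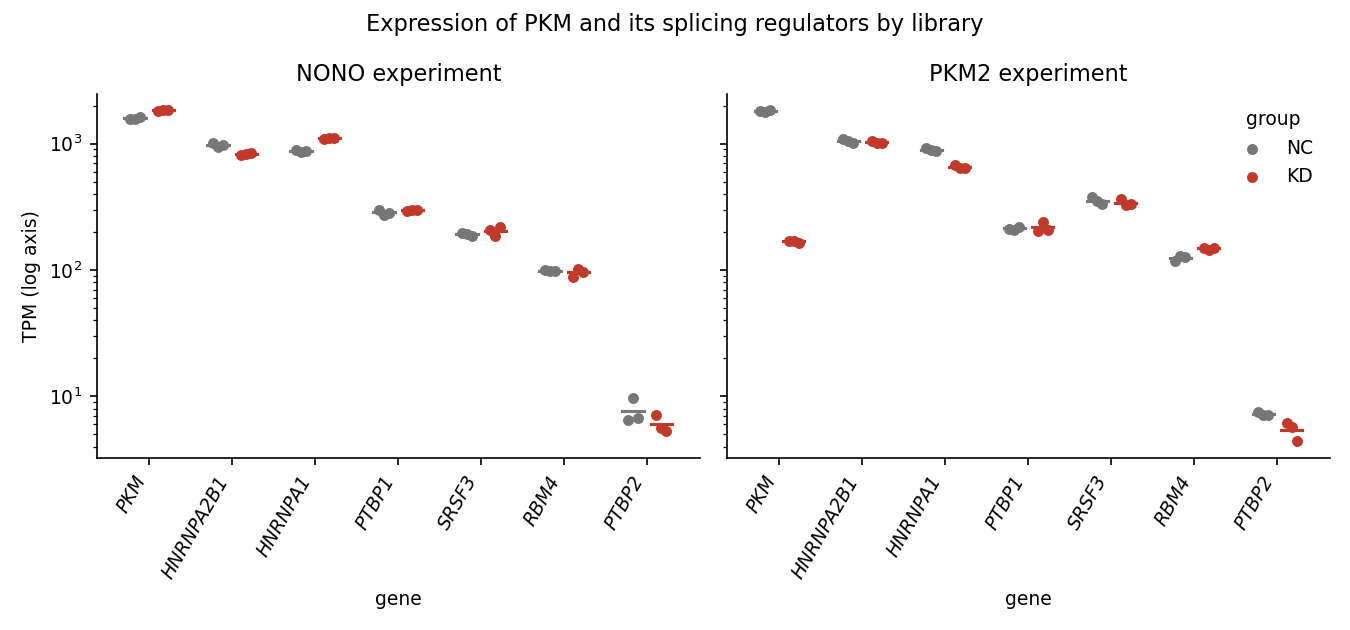
TPM on a log axis for PKM and 6 splicing regulators in each library of the NONO experiment (left) and the PKM2 experiment (right), with NC libraries in grey, knockdown libraries in red and bars at group means. PKM lies between 1574 and 1838 TPM in the NC libraries and between 164.2 and 170.4 TPM after PKM2 knockdown, while HNRNPA1 and HNRNPA2B1 change places after NONO knockdown.

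After NONO knockdown, PKM, HNRNPA1 and PTBP1 rose and HNRNPA2B1 fell, each by less than 1.5-fold. After PKM2 knockdown, PKM fell to between 9.589% and 10.31% of its NC mean, HNRNPA1 and PTBP2 fell and RBM4 rose. HNRNPA1 therefore moved in opposite directions in the 2 experiments. Calls were made on estimated counts at an adjusted P below 0.05, from the quasi-likelihood test of edgeR, with the Benjamini-Hochberg adjustment taken over all genes tested. After NONO knockdown 4 of the 7 members tested were called, where 33.4% of all genes tested were. After PKM2 knockdown 4 of 7 were called, where 68.4% of all genes were. PKM, whose product was the target there, is among these 4. The median log2 fold change of the members was 0.09 after NONO knockdown and 0.02 after PKM2 knockdown, against -0.01 over all genes in both. By the cutoff in the study's methods, more than a 2-fold change and an unadjusted P under 0.05, no member passed after NONO knockdown (2.95% of all genes did). After PKM2 knockdown only PKM, the targeted gene, passed (20.8% of all genes did). Values from whole cultures do not tell fewer expressing cells from less RNA per cell.

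The PKM2 knockdown was aimed at a product of the PKM gene. The siRNA and shRNA sequences against human PKM2 in the study's methods match exon 10 as printed above and not exon 9. In CPM (counts scaled to library size after TMM normalisation, which allows for library composition), PKM was at 2276, 2211 and 2324 in the NC libraries and at 217.7, 228.4 and 234.0 in the PKM2 knockdown libraries. The groups were far apart, and 9.589%, 10.06% and 10.31% of the NC mean remained in the knockdown libraries. The log2 fold change was -3.32 (SE 0.05, adjusted P = 7.0e-12, edgeR). By TPM, PKM moved from between the 65th and 69th gene in the NC libraries to between the 860th and 889th, and in the knockdown libraries it stood below PTBP1 (217 ± 20.7 TPM) and above RBM4 (148 ± 2.82 TPM). Whether exon 9 or exon 10 transcripts make up the remainder cannot be read from counts per gene.

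NONO knockdown had the opposite direction for PKM. The NC libraries were at 2195, 2159 and 2177 CPM and the knockdown libraries at 2595, 2630 and 2579 CPM. All knockdown libraries lay above all NC libraries, with a log2 fold change of 0.26 (SE 0.03, adjusted P = 0.00012, edgeR). On TPM the change was 0.20 and stayed past the threshold, and PKM rose from between the 71st and 77th gene to the 61st or 62nd. The difference between the knockdowns (PKM2 minus NONO, tested as the interaction term when all 12 libraries were fitted together) was -3.59 (SE 0.06, adjusted P = 9.5e-17). In that test 4 of 7 members were called, where 53.1% of all genes were. RBM4 and HNRNPA2B1 were higher (25.7% of all genes were) and PKM and HNRNPA1 lower (27.4% were), and PKM alone passed the 2-fold cutoff, where 18.1% did. PKM is counted here although its product was the target of the PKM2 knockdown.

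PKLR (ENSG00000143627, chr1:155289293-155301438, minus strand) was not detected above 3 counts in any library. In the NONO experiment it had 1 estimated count in 1 NC library and 1.13 in 1 knockdown library, and in the PKM2 experiment it had 0 in each library. A level of 3 counts corresponded to between 0.1024 and 0.1526 CPM, so PKLR could have been present only below that. PKM counts were between 14580 and 22230 times these 3 counts outside the PKM2 knockdown libraries and between 1751 and 1968 times in them. PKLR did not pass the filter on low counts and was not tested, and no rise of it was detectable after the loss of PKM mRNA at this depth. In the annotation its exons share 556 bases with HCN3 on the opposite strand.

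PTBP1 (ENSG00000011304, chr19:797075-812327, plus strand) encodes polypyrimidine tract-binding protein, the best known repressor of exon 9. In the NONO experiment it was at 601.1, 553.3 and 543.9 CPM in NC libraries and at 621.6, 634.8 and 638.6 CPM after knockdown. The groups did not overlap, though NC library 1 lay close to the knockdown libraries. The log2 fold change was 0.16 (SE 0.04, adjusted P = 0.017, edgeR). This call was lost without NC library 2 (adjusted P = 0.051), NC library 3 (0.080), knockdown library 2 (0.074) or knockdown library 3 (0.076), and on TPM the value was 0.06 (adjusted P = 0.33, limma), with overlapping groups. PTBP1 in the PKM2 experiment was at 407.8, 410.2 and 415.8 CPM in NC libraries and at 409.7, 440.0 and 404.0 CPM after knockdown. The groups overlapped and the log2 fold change of 0.02 (SE 0.05, adjusted P = 0.68, edgeR) was smaller than its error. The difference between the knockdowns for PTBP1 was -0.15 (SE 0.07, adjusted P = 0.080, edgeR), and it passed the threshold without NONO NC library 1 (-0.18, adjusted P = 0.015) or without PKM2 knockdown library 2 (-0.19, adjusted P = 0.034).

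PTBP2 (ENSG00000117569, chr1:96721665-96823738, plus strand) is the paralog used in neurons, whose mRNA PTBP1 is known to keep low. It had under 500 counts in every library, at 14.40, 13.42 and 12.03 CPM in the NC libraries of the PKM2 experiment and at 8.993, 10.36 and 9.156 CPM after knockdown. The groups were apart, and the log2 fold change was -0.48 (SE 0.10, adjusted P = 0.0014, edgeR). On TPM the value was -0.36 and passed the threshold only with the filter on low values (adjusted P = 0.10 without it, limma). In the NONO experiment PTBP2 was at 12.09, 11.68 and 10.94 CPM in NC libraries and at 10.57, 8.492 and 10.37 CPM after knockdown. These groups were apart by a narrow margin and the log2 fold change of -0.24 (SE 0.11, adjusted P = 0.14, edgeR) did not pass the test. The changes of PTBP2 in the experiments were not distinguishable, with a difference of -0.26 (SE 0.16, adjusted P = 0.18, edgeR). PTBP2 was at 1.802% to 3.512% of the TPM of PTBP1 in the NONO experiment and at 2.139% to 3.544% in the PKM2 experiment.

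HNRNPA1 (ENSG00000135486, chr12:54280193-54287088, plus strand) encodes an abundant hnRNP that binds beside exon 9. In the NONO experiment it was at 887.2, 837.6 and 843.6 CPM in NC libraries and at 1096, 1120 and 1130 CPM after knockdown. Every knockdown library was above every NC library, with a log2 fold change of 0.38 (SE 0.04, adjusted P = 2.6e-05, edgeR). HNRNPA1 in the PKM2 experiment was at 849.1, 808.9 and 798.4 CPM in NC libraries and at 696.8, 689.0 and 732.3 CPM after knockdown. Here all knockdown libraries were below all NC libraries, with a log2 fold change of -0.21 (SE 0.05, adjusted P = 0.0014, edgeR). The difference of -0.61 (SE 0.06, adjusted P = 3.1e-07, edgeR) was, after that of PKM, the largest among the members. Both directions held under each alternative and with each library left out, and both calls did too, other than by the 2-fold cutoff.

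The size of the HNRNPA1 change depended on the scale in the PKM2 experiment. On TPM the log2 fold change was -0.45 (adjusted P = 4.3e-05, limma on log2(TPM + 1)), where the median of all genes was -0.09, and in the NONO experiment it was 0.33 on TPM. The estimated count divided by TPM moves with the mean length of the transcripts that were counted, and its log2 value, centred per library, served as a length index, chosen after the data were seen. For HNRNPA1 the index stood at -0.0008, 0.0100 and -0.0092 from the NC mean in the NC libraries and at 0.0938, 0.1348 and 0.1237 in the PKM2 knockdown libraries. The knockdown libraries were all higher, by 0.12 (SE 0.02, adjusted P = 0.038, limma), and 2.65% of the genes with at least 100 counts in every library were called. After NONO knockdown the index of HNRNPA1 was not called (0.00, adjusted P = 0.98, where 0.0566% of genes were called), and the difference between the experiments was 0.12 (adjusted P = 0.018, where 2.46% were). No other member was called on this index. GENCODE 29 lists 9 coding transcripts of HNRNPA1, from 481 to 4121 bases long, and which of them were counted cannot be read from the tables.

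**Figure D2:**
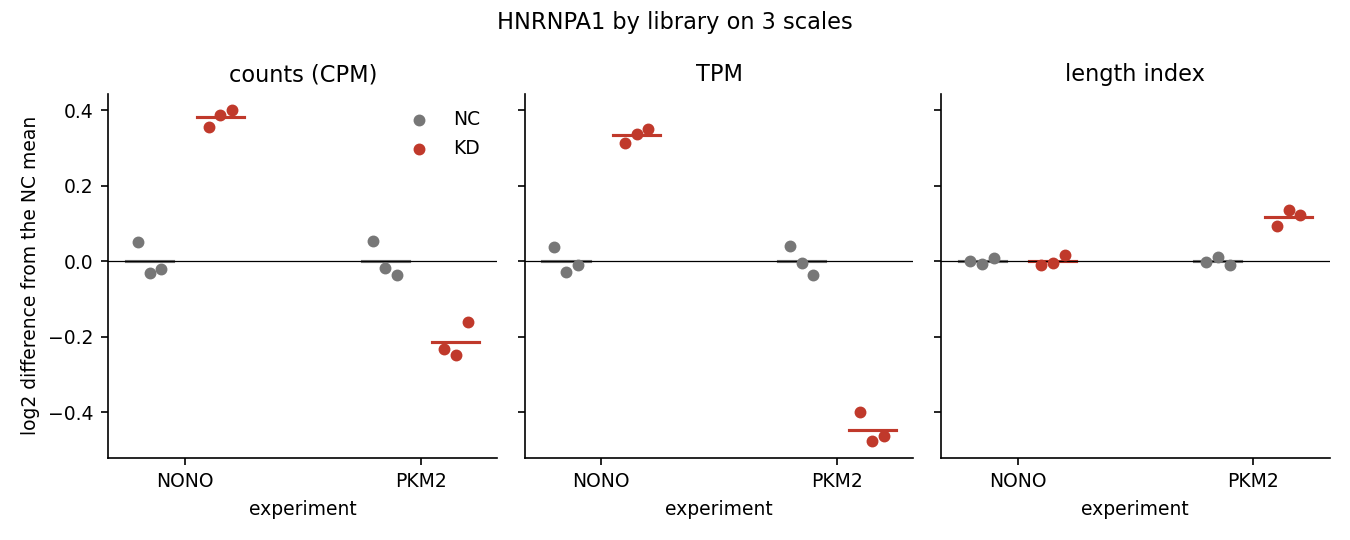
HNRNPA1 in each library as the log2 difference from the NC mean of its experiment, for CPM (left), TPM (middle) and the length index (right), with NC in grey, knockdown in red and bars at group means. After PKM2 knockdown the fall is larger on TPM (-0.45) than on counts (-0.21), and the length index lies between 0.0938 and 0.1348.

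HNRNPA1 has many processed pseudogenes of near-identical sequence, whose reads can be misassigned. The 75 genes named as such summed to between 0.6917% and 1.645% of the HNRNPA1 count in a library. Adding them left the log2 ratio of the group means at 0.38 in the NONO experiment and at -0.21 in the PKM2 experiment. Of 5 such pseudogenes tested after NONO knockdown none was called, and of 4 tested after PKM2 knockdown HNRNPA1P48 was lowered, from 4.71 ± 0.097 to 3.35 ± 0.054 CPM, with a log2 fold change of -0.49 (adjusted P = 0.0099, edgeR, and 0.060 by DESeq2). The 5 PKM pseudogenes (PKMP1 to PKMP5) summed to at most 3 counts in a library.

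HNRNPA2B1 (ENSG00000122566, chr7:26173057-26201529, minus strand) encodes the companion hnRNP that acts with HNRNPA1 on exon 9. It was at 1194, 1110 and 1132 CPM in the NC libraries of the NONO experiment and at 994.5, 1013 and 1031 CPM after knockdown. The groups did not overlap, and the log2 fold change was -0.18 (SE 0.04, adjusted P = 0.0049, edgeR), which kept its call with each library left out. In the PKM2 experiment it was at 1242, 1189 and 1162 CPM and, after knockdown, at 1256, 1239 and 1322 CPM. These groups overlapped, with a log2 fold change of 0.09 (SE 0.05, adjusted P = 0.115, edgeR) that turned to -0.04 on TPM. The difference between the knockdowns, 0.25 (SE 0.06, adjusted P = 0.0031, edgeR), passed the test. The exons of HNRNPA2B1 share 368 bases with CBX3 on the opposite strand, and the strand setting of the counting is not stated. CBX3 had mean values of 163 and 128 CPM in the NC and knockdown libraries of the NONO experiment and of 212 and 165 CPM in the PKM2 experiment, and its part in the HNRNPA2B1 values was not tested.

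The balance of the 2 hnRNPs was followed as a ratio of their TPM levels, with no test. HNRNPA1 was at 0.8772 to 0.9041 times the TPM of HNRNPA2B1 in the NC libraries of the NONO experiment and at 1.311 to 1.335 times after knockdown. For the PKM2 experiment the ratio was 0.8401 to 0.8541 in NC libraries and 0.6296 to 0.6486 after knockdown. On TPM the order of these genes was therefore turned over by NONO knockdown and widened in the other direction by PKM2 knockdown. The size of this widening depended on the scale. After PKM2 knockdown the log2 fold changes of HNRNPA1 and HNRNPA2B1 were -0.45 and -0.04 on TPM, and -0.21 and 0.09 on counts. The ratio of PTBP1 to RBM4, which oppose each other on exon 9, was 2.818 to 2.972 in NC libraries and 2.949 to 3.309 after NONO knockdown, with overlap. It was 1.623 to 1.815 in NC libraries and 1.359 to 1.662 after PKM2 knockdown, again with overlap on this TPM scale. On counts the log2 fold changes there were 0.39 for RBM4, which was called, and 0.02 for PTBP1, which was not.

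SRSF3 (ENSG00000112081, chr6:36594353-36605600, plus strand) encodes the serine and arginine-rich factor that favours exon 10. It was at 326.3, 285.5 and 288.5 CPM in the NC libraries of the NONO experiment and at 321.1, 306.1 and 328.0 CPM after knockdown. The groups overlapped, with a log2 fold change of 0.09 (SE 0.05, adjusted P = 0.27, edgeR), and without NC library 1 the value was 0.16 and passed the test (adjusted P = 0.0010). The PKM2 experiment had SRSF3 at 311.7, 308.3 and 300.6 CPM in NC libraries and at 317.1, 312.9 and 333.3 CPM after knockdown. The knockdown libraries were all slightly above the NC libraries, yet the log2 fold change of 0.07 (SE 0.05, adjusted P = 0.22, edgeR) did not pass, and on TPM it was -0.05. The difference between the knockdowns was -0.03 (SE 0.08, adjusted P = 0.75, edgeR).

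RBM4 (ENSG00000173933, chr11:66638617-66668374, plus strand) encodes an RNA-binding protein that promotes exon 9. In the PKM2 experiment it was at 123.1, 123.4 and 136.6 CPM in NC libraries and at 164.4, 161.0 and 177.3 CPM after knockdown. The groups were apart, with a log2 fold change of 0.39 (SE 0.06, adjusted P = 8.2e-05, edgeR) on counts and of 0.25 on TPM, past the threshold on both. In the NONO experiment RBM4 was at 87.17, 84.15 and 83.62 CPM in NC libraries and at 85.52, 88.48 and 90.16 CPM after knockdown. These groups overlapped, and the log2 fold change was 0.05 (SE 0.05, adjusted P = 0.43, edgeR) on counts and -0.04 on TPM. The difference between the knockdowns was 0.33 (SE 0.08, adjusted P = 0.0016, edgeR). RBM4 shares 1595 exon bases with the readthrough gene RBM14-RBM4 and 590 with its paralog RBM4B on the opposite strand. The readthrough gene held between 6.209% and 11.23% as many counts as RBM4, and with it added the log2 ratio of group means was 0.06 and 0.41 in the NONO and PKM2 experiments. RBM4B had a mean of 22.9 ± 0.326 CPM in the NC group and of 22.6 ± 1.26 CPM after PKM2 knockdown (log2 fold change -0.02, adjusted P = 0.80, edgeR).

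**Figure D3:**
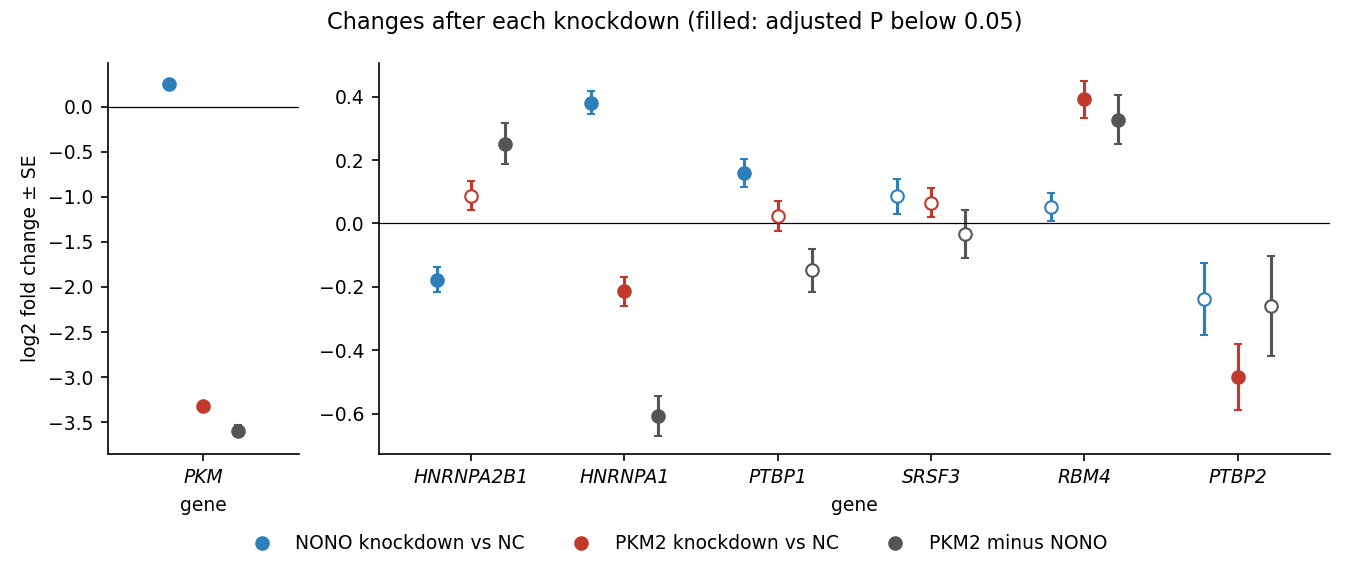
log2 fold change ± SE (edgeR) for PKM (left, on its own axis) and 6 splicing regulators (right), after NONO knockdown (blue), after PKM2 knockdown (red) and as PKM2 minus NONO (grey). Filled points passed an adjusted P below 0.05, and HNRNPA1 is at 0.38 and -0.21 in the 2 experiments.

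The CPM ranges of NC and knockdown libraries were apart for PKM, PTBP1, PTBP2, HNRNPA1 and HNRNPA2B1 in the NONO experiment, 5 of 7 members, where 46.1% of all genes tested were apart. In the PKM2 experiment they were apart for PKM, PTBP2, HNRNPA1, SRSF3 and RBM4, also 5 of 7, where 71.9% were. PKM, the targeted gene, is counted among these 5. The plot of each regulator under every setting shows which of these calls moved. With the 2-fold cutoff left aside, HNRNPA1 was called at each setting in both experiments. Its log2 fold change ran from 0.33 to 0.42 in the NONO experiment and from -0.45 to -0.19 in the other. RBM4 after PKM2 knockdown was likewise called at each of them, from 0.25 to 0.44.

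**Figure D4:**
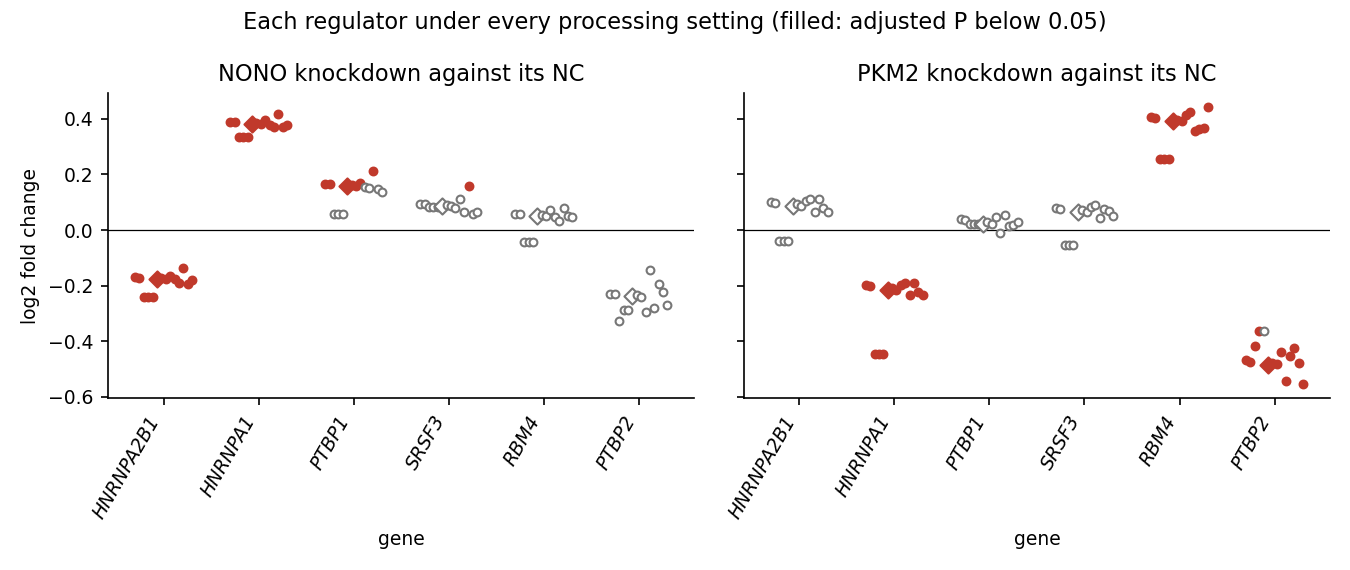
log2 fold change of 6 splicing regulators under the main setting (diamonds) and each alternative or left-out library (circles), for NONO knockdown (left) and PKM2 knockdown (right), filled where the adjusted P was below 0.05. HNRNPA1 is filled throughout, whereas PTBP1 after NONO knockdown lies between 0.06 and 0.21 with filled and open points.

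Other genes of these pathways were followed as lists. Of 11 paralogs of the members 10 were tested. After NONO knockdown 2 rose (16.2% of all genes did) and 1 fell (17.2% did), with a median of 0.02 against -0.01 over all genes. HNRNPA0 had the largest rise, 0.22 (adjusted P = 0.0080, edgeR), which on TPM was 0.16 and not called (adjusted P = 0.13, limma). HNRNPAB fell by 0.35 on the log2 scale (adjusted P = 0.029, edgeR), a call lost without NONO knockdown library 2 (adjusted P = 0.10) or 3 (0.13) and by DESeq2 (0.14), with a value of -0.17 without NC library 1. After PKM2 knockdown 4 rose (33.6% did) and 1 fell (34.7% did), with a median of 0.09, and HNRNPD, a regulator of mRNA decay, rose from 416 ± 10.8 to 535 ± 18.5 CPM (log2 fold change 0.36) while HNRNPDL fell by 0.19 on the log2 scale. HNRNPAB rose there by 0.24.

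Among 12 genes reported to act upstream of PKM splicing, 4 rose and none fell after NONO knockdown (16.2% of all genes rose and 17.2% fell), with a median of 0.12. After PKM2 knockdown 6 rose and 2 fell (33.6% and 34.7% of all genes), with a median of 0.11. MYC, which is known to raise PTBP1, HNRNPA1 and HNRNPA2B1, was at -0.03 on the log2 scale (adjusted P = 0.76, edgeR) after NONO knockdown and at -0.30 (SE 0.15, adjusted P = 0.10, edgeR) after PKM2 knockdown, where its values ran from 265.0 to 371.9 CPM in NC libraries and from 214.4 to 319.8 CPM in knockdown libraries. The groups overlapped. NEK2, a kinase that binds HNRNPA1 and HNRNPA2B1, had the largest rise after PKM2 knockdown, from 43.7 ± 1.05 to 68.3 ± 3.79 CPM (log2 fold change 0.64, adjusted P = 1.4e-06, edgeR). The rise of CELF1 after PKM2 knockdown was close to it (0.64, adjusted P = 1.5e-06, edgeR). RBMX, an hnRNP, fell there by 0.20 on the log2 scale, and CELF1 had the largest rise after NONO knockdown, 0.20, which was 0.11 and not called on TPM (adjusted P = 0.29, limma).

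The 10 genes known as PTBP1 targets by splicing or decay, PTBP2 among them, had 0 raised and 1 lowered after NONO knockdown (edgeR, median -0.08), beside 16.2% and 17.2% of all genes. The lowered gene was TPM1, a tropomyosin, at -0.19 (adjusted P = 0.014, edgeR), a call lost without NC library 2 or knockdown libraries 1 or 2 (adjusted P = 0.062, 0.062 and 0.056). After PKM2 knockdown 3 rose and 4 fell, near the 33.6% and 34.7% of all genes, with a median of -0.14. GABBR1, a subunit of the GABA-B receptor, fell from 50.3 ± 2.77 to 8.22 ± 1.504 CPM (log2 fold change -2.62, adjusted P = 2.1e-09, edgeR) and CLTA, a clathrin light chain, rose from 169 ± 2.16 to 334 ± 28.7 CPM (log2 fold change 0.98, adjusted P = 4.8e-08, edgeR). PTBP1 mRNA itself was at 0.02 in that experiment, and any part of PTBP1 in the changes of these genes was not tested.

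Of 14 genes for proteins that modify PKM2 or act with it in the nucleus, 2 rose and 3 fell after NONO knockdown (median -0.01), beside 16.2% and 17.2% of all genes. After PKM2 knockdown 4 rose and 6 fell (median -0.19), beside 33.6% and 34.7%. STAT3, a transcription factor that PKM2 is reported to phosphorylate, had the largest rise on counts in both. It went from 159 ± 4.51 to 219 ± 4.75 CPM and from 149 ± 2.80 to 297 ± 18.2 CPM. SIRT6, also on this list, was close after PKM2 knockdown, at 197.2% of its NC mean CPM against 199.4% for STAT3. On TPM its rise was the larger (177.9% against 164.9%). HIF1A, the hypoxia-inducible factor that PKM2 binds, had the largest fall in both. It went from 688 ± 166 to 479 ± 16.2 CPM after NONO knockdown (log2 fold change -0.52, adjusted P = 0.010, edgeR), a call lost on TPM (adjusted P = 0.066, limma) and at the threshold without knockdown library 3 (adjusted P = 0.050). After PKM2 knockdown it went from 441 ± 21.6 to 195 ± 15.6 CPM (log2 fold change -1.17, adjusted P = 1.6e-08, edgeR).

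The genes beside PKM on chromosome 15 were also measured. After PKM2 knockdown PARP6 fell from 24.8 ± 2.00 to 19.0 ± 0.911 CPM (log2 fold change -0.39, adjusted P = 0.0010, edgeR) and HEXA, a lysosomal enzyme, rose from 54.0 ± 2.20 to 78.0 ± 1.79 CPM (log2 fold change 0.53, adjusted P = 3.5e-06, edgeR). These were the 2 neighbours tested of 5 listed. After NONO knockdown 3 neighbours were tested and CELF6 was raised, at 0.449 ± 0.107 and 1.01 ± 0.214 CPM (log2 fold change 1.16, adjusted P = 0.031, edgeR), a call lost without NC library 1 (adjusted P = 0.063) or 3 (0.11) or knockdown library 1 (0.11) or 3 (0.11).

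The genes whose pattern was most like that of each member were found over the 12 libraries, as the Pearson correlation of log2(CPM + 1) minus the NC mean of the same experiment, among 14525 genes tested in both. The libraries share their groups and PKM2 knockdown libraries stand apart from the rest, so the coefficients are a description only. PKM was closest to ESAM (0.9994), PCNP (0.9993) and STOML2 (0.9992), whose log2 fold changes after PKM2 knockdown were -2.53, -1.55 and -3.01 and after NONO knockdown 0.14, 0.11 and 0.16. HNRNPA1 was closest to DUT (0.9802), which was at 0.45 after NONO knockdown and -0.40 after PKM2 knockdown. HNRNPA2B1 was closest to FEN1 (0.9888), RBM4 to ARMC7 (0.9868), PTBP2 to ZFHX4 (0.9679), PTBP1 to PRPF19 (0.9496) and SRSF3 to GATC (0.9245).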

How the data were processed

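RNA-seq of MDA-MB-231 cells was analysed for 12 libraries, grouped by the sample labels. The authors deposited 1 table per experiment with fractional estimated counts and TPM values for each library. The submitters' processing notes name fastp, HISAT2, StringTie, RSEM, DESeq2, edgeR and limma and the build hg19, without versions or roles. The authors' deposited tables also hold a gene length, used to compare the annotations, and fold changes with their log2 values, P values and adjusted P values and mean TPM per group, none of which were used. The tables hold 60623 and 60671 genes and give no coordinates, so positions were taken from GENCODE 29 on GRCh38. All 8 members were found by symbol in both tables and matched by gene identifier.

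Estimated counts were rounded and tested with edgeR 4.0.16 (R 4.3.3), with TMM factors and filterByExpr, in each experiment separately and as an interaction over all libraries. The SE was taken from the F statistic. TPM values were tested with limma 3.58.1 as log2(TPM + 1) where a gene's mean TPM reached 1, so fold changes of low genes are understated there. The procedures were checked on simulated counts. For NONO knockdown, PKM2 knockdown and the difference, edgeR recovered 97, 92 and 88 of 100 genes changed 2-fold. Of 100 genes with a smaller change it recovered 57, 62 and 29, so small changes can go uncalled. The changed genes were few among those simulated and none had low counts. Far more genes were called in the data, so these rates do not measure recovery there. Other settings were DESeq2 1.42.0, factors by relative log expression, no filter, a replicate block, a pseudocount of 0.1, the study's 2-fold cutoff, and each library left out. The genes named were the members, NONO, the pseudogenes and neighbours of PKM, the largest called rise and fall of each list, and the genes most like a member. RBM4B, CBX3, MYC, the readthrough gene and DUT with its values were described beside the members they touch, and SIRT6 beside STAT3. The members and lists were chosen with earlier results of these data known, and supply no independent support. Nothing states that replicates were separate cultures, so P values measure the spread between these libraries, which may be technical. Which siRNA was used, and how reads were assigned between genes and strands, is not given in the sources used here. Depth was 19861762 to 28455268 estimated counts per library.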

Additional observations from a re-analysis of the deposited data

Results flagged for a closer look

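The effects of the 2 knockdowns were compared by the interaction test of edgeR, as the log2 fold change after PKM2 knockdown minus that after NONO knockdown, and 19 of the 24 named genes tested, the targeted gene NONO (2.86) among them, differed at an adjusted P below 0.05, where 53.1% of all genes did. Among the members these were PKM (-3.59), HNRNPA1 (-0.61), HNRNPA2B1 (0.25) and RBM4 (0.33). Of these HNRNPA1 passed the test in both experiments with opposite signs. So did PKM, whose fall was that of the gene targeted by the PKM2 knockdown. Apart from the members and NONO, the named genes were picked for called changes in these same data. The 19 of 24 are therefore no test against the 53.1%.

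Among the other genes named, the difference was -2.46 for GABBR1, 0.97 for CLTA, 0.82 for TPM1, -0.66 for HIF1A and 0.52 for STAT3. It was -0.63 for HNRNPA1P48, 0.57 for HNRNPAB, -0.38 for HNRNPDL and 0.33 for HNRNPD. It was 0.54 for NEK2, 0.43 for CELF1 and -0.36 for RBMX, and among the neighbours of PKM 0.60 for HEXA and -0.47 for PARP6. TPM1, HNRNPAB and HNRNPDL were called in both experiments with opposite signs. The call for HNRNPA1P48, which had a mean under 5 CPM in every group, was lost by DESeq2 (adjusted P = 0.086), without the filter (0.090) and without any 1 of 9 of the 12 libraries, with an adjusted P between 0.052 and 0.11. On TPM the CELF1 difference was 0.27 and no longer passed (adjusted P = 0.075, limma), and without the filter on TPM those of HIF1A (adjusted P = 0.075), STAT3 (0.067) and RBMX (0.057) did not pass either.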

How the results depend on the processing

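Members called numbered 4 in each comparison, and when 1 library was left out 3 to 5 after NONO knockdown, 4 after PKM2 knockdown and 4 to 5 for the difference. By the study's cutoff of a 2-fold change they numbered 0, 1 and 1. The numbers after PKM2 knockdown and for the difference include PKM, the gene targeted by that knockdown. Over all genes the calls were 4954, 10614 and 8497, and 437, 3234 and 2899 by that cutoff. With each library left out they were 3554 to 6249, 9891 to 10863 and 7969 to 8526. After NONO knockdown limma on TPM called 2645 genes (911 raised and 1734 lowered, against 2396 and 2558 on counts), 2657 with a pseudocount of 0.1 and 1699 without a filter, and the cause was not tested. In the PKM2 experiment limma called 3525 raised and 4862 lowered genes, with a median over all genes of -0.09 (-0.10 with a pseudocount of 0.1), against 5221 and 5393 on counts.

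Values that changed sign did not pass the test at the main setting or at the setting that turned them, and the cause was not tested. On TPM under all 3 limma settings these were, after NONO knockdown, HNRNPD (-0.0086) and RBM4 (-0.0427, -0.0431 and -0.0427), and after PKM2 knockdown HNRNPA2B1 (-0.0409, -0.041 and -0.0409) and SRSF3 (-0.0533, -0.0534 and -0.0533). With a library left out these were HNRNPD after NONO knockdown (-0.0062 without NC library 2, up to 0.0793), PTBP1 after PKM2 knockdown (-0.0096 without knockdown library 2, up to 0.0538), and for the difference SRSF3 (0.0197 and 0.0122 without NONO NC libraries 2 and 3, down to -0.0881) and CELF6 (0.0727 and 0.2046 without PKM2 knockdown libraries 1 and 2, -1.1574 without library 3). CLTA after NONO knockdown, at -0.0035, ran from -0.0635 to 0.0643. With the length index subtracted, a value with no test, the PTBP1 difference was 0.0238 in place of -0.15.

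Libraries of the same replicate number showed no shared deviation, with correlations of their deviations between -0.12 and 0.05. With 3 libraries per group this cannot exclude that equal numbers were handled together. With the replicate number as a block 4 members were called in each comparison, and 4351, 10525 and 8239 genes in all. A count of 0 for PKLR limits it only to below 3 counts.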
